A study of Arabidopsis thaliana with 15 samples.

Results

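Glucosinolate and tryptophan synthesis was followed through 4 genes: AOP3 (AT4G03050, side chain modification), BCAT4 (AT3G19710, elongation of the methionine chain), UGT74B1 (AT1G24100, glucosylation of the core structure) and AT2G04400 (tryptophan synthesis). They are 4 of the 13356 genes that the array annotation pairs with a probe set of their own, and each was represented by the brightest probe set, on average, that matches it alone. Each of the 4 genes had 1 such probe set, so no choice between probe sets arose. The RNA came from leaves of Arabidopsis thaliana in the Landsberg erecta background and was measured on 15 Affymetrix ATH1 arrays, 3 for each of 5 groups. The groups were hy5-1 under UV-B, uvr8-1 under UV-B, uvr8-1 in white light, wildtype under UV-B and wildtype in white light. Plants of every group were 3 weeks old and had been raised in compost at 21 °C in unbroken white light, whose fluence rate was 25 µmol m-2 s-1. The UV-B groups were then exposed for 4 h to UV-B at a fluence rate of 3 µmol m-2 s-1. UVR8 is a UV-B photoreceptor and HY5 is a bZIP transcription factor of light signalling. Each mutant is represented by 1 allele, and hy5-1 has no white light arrays, so its response to UV-B cannot be computed.

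Glucosinolates are sulphur-rich glucosides of the Brassicaceae that myrosinases break down into defence compounds when tissue is damaged. Those made from methionine first have the amino acid's carbon chain lengthened, then receive the common core of thiol, glucose and sulfate, and are finally altered in their side chain. BCAT4 is an aminotransferase that starts the lengthening of methionine, UGT74B1 is the glucosyltransferase that adds glucose to the core, and AOP3 is a dioxygenase that makes hydroxyalkyl side chains. Landsberg erecta is known for expressing AOP3 in its leaves. Indole glucosinolates use tryptophan in place of methionine, and tryptophan also feeds auxin and camalexin, an antimicrobial compound of Arabidopsis.

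The values are deposited log2 expression values, 1 per probe set and array, and the array medians lay between 4.31 and 4.40. UVR8 and HY5 had 0 single-gene probe sets in this annotation, so the mutated genes were not checked on these arrays. The leaf marker RCA, an activator of carbon fixation, had values between 12.18 and 12.54 on all arrays. The root expansins EXPA7 and EXPA18 had values from 3.08 to 3.90 and from 3.19 to 4.34. PYK10, the other measured root marker, was brighter, at 6.58 to 8.33. LHCB4.2, the other measured leaf marker, ranged from 8.27 to 11.32. The labels call the 3 arrays of a group biological replicates without naming plants or harvests, so p-values measure the spread between these arrays. In leaf RNA, fewer cells of a type and less RNA per cell cannot be told apart.

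AOP3 and BCAT4 were lower, and UGT74B1 and AT2G04400 higher, under UV-B in each genotype measured in both lights. The changes were 14.9-fold for AOP3, 3.61-fold for BCAT4, 1.95-fold for UGT74B1 and 6.34-fold for AT2G04400 in wildtype. In uvr8-1 they were 14.6-fold, 4.57-fold, 2.79-fold and 8.02-fold in the same order. All 4 genes were called in wildtype and all 4 in uvr8-1, at an adjusted p under 0.05 over the whole array. Of all 22746 probe sets tested, 30.5% were called in wildtype and 31.9% in uvr8-1. The groups of 3 arrays did not overlap for any of the 4 genes in either genotype, which held for 40.5% of all probe sets in wildtype and 40.8% in uvr8-1. The 4 genes were chosen with earlier results of these data known, so their counts cannot be read as an excess over these shares.

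AOP3, the side chain dioxygenase, had log2 values of 5.23, 6.11 and 6.31 in wildtype under UV-B, against 9.28, 9.95 and 10.11 in wildtype in white light. In uvr8-1 the values were 5.51, 5.40 and 5.92 under UV-B, against 8.88, 9.82 and 9.73 in white light. Every array under UV-B lay below every white light array, also across genotypes. The log2 difference was −3.90 ± 0.32 in wildtype (SE, adjusted p = 1.28e-06) and −3.87 ± 0.32 in uvr8-1 (adjusted p = 1.38e-06). Among the 13356 genes this was the fall of rank 2 in wildtype and of rank 1 in uvr8-1.

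BCAT4, at the entry of methionine chain elongation, had 7.46, 8.08 and 8.50 in wildtype under UV-B, against 9.55, 9.98 and 10.07 in wildtype in white light. In uvr8-1 it had 7.57, 7.62 and 8.25 under UV-B, against 9.67, 10.03 and 10.33 in white light. The 6 UV-B arrays of these genotypes were all lower than the 6 white light arrays. The log2 difference was −1.85 ± 0.31 in wildtype (adjusted p = 0.000423), of rank 119 among the falls, and −2.19 ± 0.31 in uvr8-1 (adjusted p = 0.000111), of rank 48.

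UGT74B1, the glucosyltransferase of the core structure, had 8.96, 8.21 and 8.88 in wildtype under UV-B, against 7.21, 7.94 and 8.02 in wildtype in white light. In uvr8-1 it had 9.24, 8.96 and 9.15 under UV-B, against 7.01, 7.91 and 7.99 in white light. Wildtype replicate 2 under UV-B, at 8.21, stood only 0.28 above wildtype replicate 2 in white light. The log2 difference was 0.96 ± 0.28 in wildtype (adjusted p = 0.0197) and 1.48 ± 0.28 in uvr8-1 (adjusted p = 0.00125). The call in wildtype was lost when white light replicate 1 (adjusted p = 0.0897), UV-B replicate 1 (0.0729) or UV-B replicate 3 (0.0741) of wildtype was left out. In uvr8-1 it held in all 6 fits without 1 array.

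AT2G04400, of tryptophan synthesis, had 9.41, 9.25 and 9.95 in wildtype under UV-B, against 6.80, 6.93 and 6.88 in wildtype in white light. In uvr8-1 it had 9.81, 9.99 and 9.80 under UV-B, against 6.996, 6.798 and 6.788 in white light. The white light arrays of both genotypes lay within a narrow band, and all UV-B arrays were far above it. The log2 difference was 2.67 ± 0.17 in wildtype (adjusted p = 1.51e-07), of rank 216 among the rises, and 3.00 ± 0.17 in uvr8-1 (adjusted p = 6.23e-08), of rank 160.

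**Figure D1:**
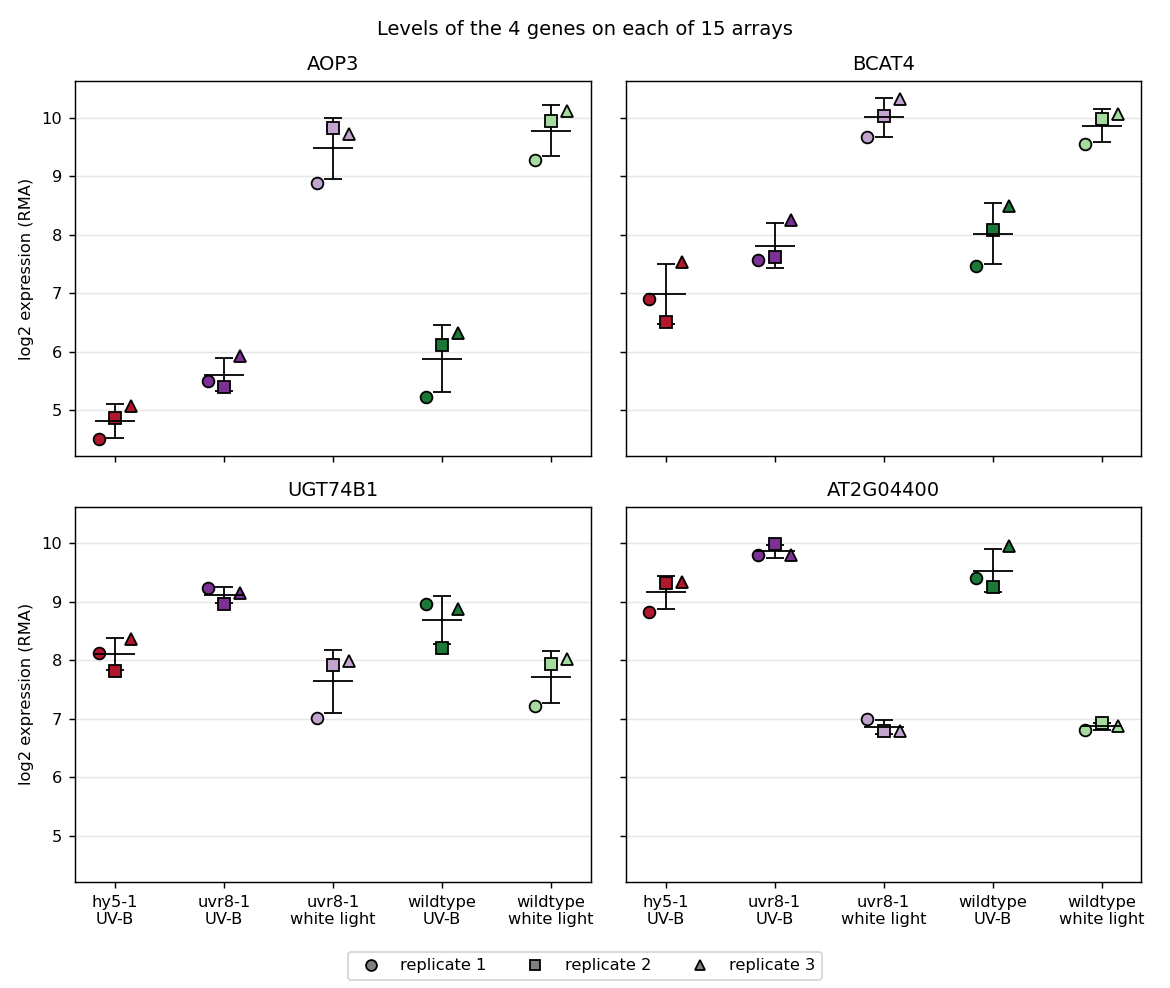
Log2 expression (vertical axis, RMA units) of AOP3, BCAT4, UGT74B1 and AT2G04400 on each array, by group (horizontal axis); marker shapes give the replicate number, and the black bars give the group mean with its SD (n = 3). AOP3 and BCAT4 stand lower, and UGT74B1 and AT2G04400 higher, under UV-B in uvr8-1 and in wildtype, with no overlap between the lights within a genotype.

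The comparison of uvr8-1 with wildtype asked which responses need the photoreceptor. For none of the 4 genes was the difference between the UV-B responses of the genotypes called, against 0.857% of all probe sets. An unadjusted p under 0.05 was also absent, with values of 0.948 for AOP3, 0.446 for BCAT4, 0.222 for UGT74B1 and 0.186 for AT2G04400. The difference of responses (uvr8-1 minus wildtype) was 0.03 for AOP3, with a 95% interval from −0.94 to 1.00. It was −0.34 for BCAT4 (−1.27 to 0.59), 0.52 for UGT74B1 (−0.35 to 1.38) and 0.34 for AT2G04400 (−0.18 to 0.86). These intervals are wide beside the BCAT4 and UGT74B1 responses themselves, so the arrays do not show that the genotypes respond alike. In uvr8-1 itself all 4 responses were called, at −3.87 for AOP3, −2.19 for BCAT4, 1.48 for UGT74B1 and 3.00 for AT2G04400. The 3' and 5' control probe sets of GAPDH, actin and ubiquitin differ more where transcripts are less evenly represented, and their mean log2 difference (3' minus 5') moved with light in uvr8-1. It was 1.92, 1.95 and 1.92 in uvr8-1 under UV-B, against 2.36, 2.08 and 2.11 in uvr8-1 in white light, with no overlap. In wildtype it lay between 1.77 and 1.97 under UV-B, against 1.79 to 1.88 in white light. With this value as a covariate, the UV-B responses in uvr8-1 were −4.03 for AOP3, −2.51 for BCAT4, 1.11 for UGT74B1 and 2.99 for AT2G04400, all of them called. The difference of responses was then −0.17 for AOP3, −0.72 for BCAT4, 0.077 for UGT74B1 and 0.32 for AT2G04400, and none was called.

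Same-numbered arrays of these genotypes deviated together, so the difference of responses was also read within numbers 1, 2 and 3. The UGT74B1 response was larger in uvr8-1 in 3 of 3, by 0.48, 0.77 and 0.29. BCAT4 differed by −0.0092, −0.51 and −0.50, a further fall in uvr8-1 in 3 of 3 that was near 0 in the first. AOP3 differed by 0.68, −0.58 and −0.0059, and AT2G04400 by 0.20, 0.87 and −0.056, with signs on both sides of 0. With the replicate number as a block, limma's adjusted p was 0.992 for AOP3, 0.774 for BCAT4, 0.775 for UGT74B1 and 0.768 for AT2G04400. For AOP3 the sign of the difference over group means changed with single arrays, and it ran from −0.30 to 0.28 over the 12 fits without 1 array.

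Levels under UV-B were also set side by side. UGT74B1 had 9.24, 8.96 and 9.15 in uvr8-1 against 8.96, 8.21 and 8.88 in wildtype, 3 values that stood just above the highest of wildtype. That lack of overlap was found in 15.0% of all probe sets in this comparison, and the log2 difference of 0.43 ± 0.28 was not called (adjusted p = 0.666). The differences were −0.27 ± 0.32 for AOP3 (adjusted p = 0.889), −0.20 ± 0.31 for BCAT4 (0.93) and 0.33 ± 0.17 for AT2G04400 (0.505). None of the 4 was called, and 2.41% of all probe sets were. In white light the differences were −0.30 ± 0.32 for AOP3, 0.14 ± 0.31 for BCAT4, −0.08 ± 0.28 for UGT74B1 and −0.01 ± 0.17 for AT2G04400. None was called there either, with 0.0176% of all probe sets called, and the groups overlapped for all 4 genes, while 6.1% of all probe sets did not overlap.

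**Figure D2:**
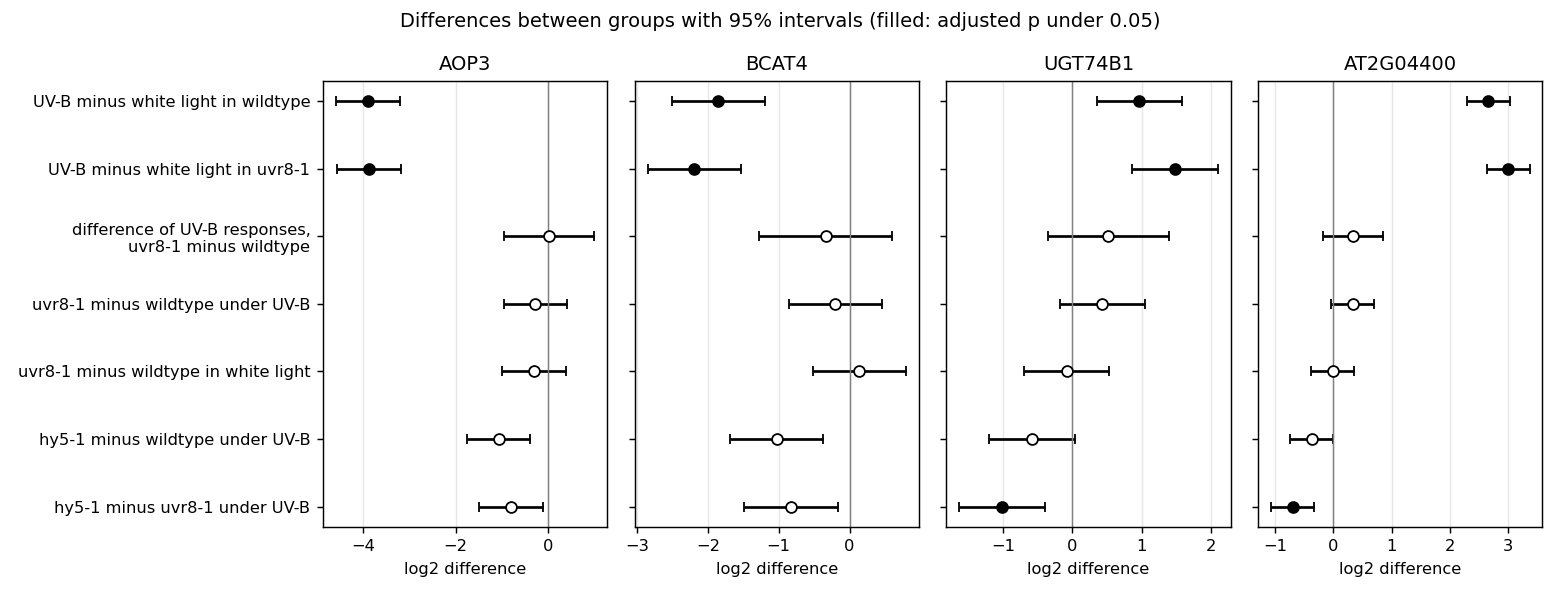
Log2 differences (horizontal axis, a panel per gene) for the 7 comparisons (rows), with 95% intervals from the model over 15 arrays; filled points had an adjusted p under 0.05. The 2 UV-B responses are filled for all 4 genes, the 3 comparisons of uvr8-1 with wildtype are open for all 4, and hy5-1 minus uvr8-1 is filled for UGT74B1 and AT2G04400.

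In hy5-1 under UV-B, the means of all 4 genes were below those of uvr8-1 and of wildtype under UV-B. AOP3 had 4.50, 4.87 and 5.07 in hy5-1, against 5.51, 5.40 and 5.92 in uvr8-1 and 5.23, 6.11 and 6.31 in wildtype. All 3 arrays of hy5-1 lay below the 6 others under UV-B, wildtype replicate 1 being the nearest. The difference from wildtype was −1.07 ± 0.32 (unadjusted p = 0.00513, adjusted p = 0.0591), and that from uvr8-1 was −0.80 ± 0.32 (adjusted p = 0.115). Neither passed the threshold.

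BCAT4 had 6.91, 6.51 and 7.54 in hy5-1, against 7.57, 7.62 and 8.25 in uvr8-1 and 7.46, 8.08 and 8.50 in wildtype. The hy5-1 arrays overlapped wildtype through hy5-1 replicate 3 and stood just below uvr8-1. The difference was −1.03 ± 0.31 from wildtype (adjusted p = 0.0581) and −0.83 ± 0.31 from uvr8-1 (adjusted p = 0.089), and neither was called.

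UGT74B1 had 8.13, 7.82 and 8.36 in hy5-1, against 9.24, 8.96 and 9.15 in uvr8-1 and 8.96, 8.21 and 8.88 in wildtype. Its 3 values in hy5-1 were below all of uvr8-1 and mixed with the lowest of wildtype. It was lower than in uvr8-1 by a called log2 difference of −1.01 ± 0.28 (adjusted p = 0.0332), and the difference from wildtype was −0.58 ± 0.28 (adjusted p = 0.229). The call against uvr8-1 was kept only when hy5-1 replicate 3 was left out (adjusted p = 0.0356), and leaving out any other array of the 6 gave up to 0.126.

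AT2G04400 had 8.83, 9.31 and 9.34 in hy5-1, against 9.81, 9.99 and 9.80 in uvr8-1 and 9.41, 9.25 and 9.95 in wildtype. It was lower than in uvr8-1 by a called log2 difference of −0.70 ± 0.17 (adjusted p = 0.0176), while the difference from wildtype was −0.38 ± 0.17 (adjusted p = 0.194). The call against uvr8-1 ended without uvr8-1 UV-B replicate 2 (adjusted p = 0.067) and without hy5-1 UV-B replicate 1 (0.0757). In all, 0 of the 4 genes were called against wildtype, with 7.59% of all probe sets called, and 2 of 4 against uvr8-1, with 13.8% called. The groups did not overlap for 1 of 4 genes against wildtype, with 29.2% of all probe sets, and for 4 of 4 against uvr8-1, with 33.5%. The comparisons share the hy5-1 arrays.

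The hy5-1 arrays stood apart in the 3' minus 5' value of the control genes, which was 2.88, 3.04 and 2.43, against 1.92 to 1.95 in uvr8-1 and 1.77 to 1.97 in wildtype under UV-B. The nearest of the other arrays, at 2.36, was uvr8-1 replicate 1 in white light. Within hy5-1, replicate 3 had the lowest such value, and it had the highest value of each of the 4 genes. Replicate 2 had the highest such value, while replicate 1 was lowest for AOP3 and AT2G04400. Replicate 3 was also the highest BCAT4 array in every other group. With the 3' minus 5' value as a covariate, hy5-1 minus wildtype was −0.48 for AOP3, 0.10 for BCAT4, 0.73 for UGT74B1 and −0.32 for AT2G04400, none of them called. With the covariate, hy5-1 minus uvr8-1 was −0.24 for AOP3, 0.24 for BCAT4, 0.23 for UGT74B1 and −0.66 for AT2G04400, with no call. Genotype and this value cannot be told apart on these arrays, since all hy5-1 arrays lie above all others.

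**Figure D3:**
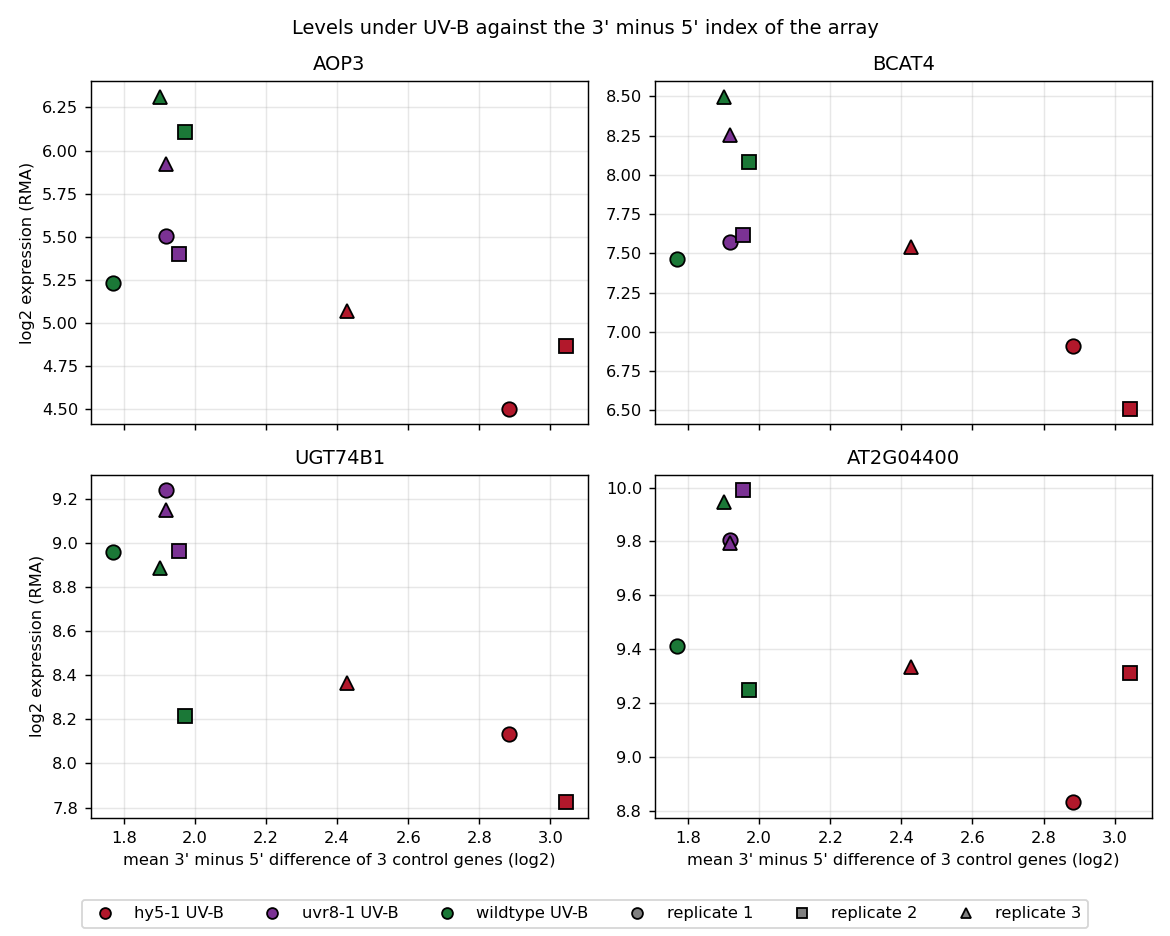
Log2 expression of the 4 genes (vertical axes, separate scales) on the 9 arrays under UV-B against the mean 3' minus 5' difference of the control genes GAPDH, actin and ubiquitin (horizontal axis, log2 units). The hy5-1 arrays lie at 2.43 to 3.04 and the others at 1.77 to 1.97; AOP3 is lower on every hy5-1 array than on every other array shown.

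The order of the groups was the same for AOP3 and BCAT4 at the low end. AOP3 means were 4.81 ± 0.29 in hy5-1 under UV-B, 5.61 ± 0.28 in UV-B treated uvr8-1, 9.48 ± 0.52 in white light uvr8-1, 5.88 ± 0.57 in wildtype under UV-B and 9.78 ± 0.44 in wildtype in white light (SD, n = 3 each). BCAT4 means were 6.99 ± 0.52, 7.81 ± 0.38, 10.01 ± 0.33, 8.01 ± 0.52 and 9.87 ± 0.28 over these groups in that order. From low to high, both genes ran from hy5-1 through uvr8-1 to wildtype under UV-B, followed by the white light groups. The neighbouring UV-B groups did not differ by a called difference, nor did the white light groups, and the gap lay between the lights.

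UGT74B1 means were 8.11 ± 0.27 in hy5-1 under UV-B, 9.12 ± 0.14 in UV-B treated uvr8-1, 7.64 ± 0.54 in white light uvr8-1, 8.68 ± 0.41 in wildtype under UV-B and 7.72 ± 0.44 in wildtype in white light. AT2G04400 means were 9.16 ± 0.28, 9.86 ± 0.11, 6.86 ± 0.12, 9.54 ± 0.37 and 6.87 ± 0.06 over these groups in that order. Both genes were lowest in the white light groups and highest in uvr8-1 under UV-B, with hy5-1 the lowest of the UV-B groups. The white light groups overlapped, as did hy5-1 with wildtype under UV-B. For UGT74B1 hy5-1 under UV-B also overlapped wildtype in white light (8.02 at its highest), a pair that was not tested. For AT2G04400 uvr8-1 overlapped wildtype under UV-B.

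The genes differed in how much single arrays departed from their group means. The residual SD over the 15 arrays was 0.44 for AOP3, 0.42 for BCAT4 and 0.39 for UGT74B1, against 0.22 for AT2G04400 and a median of 0.19 over all probe sets. Replicate 1 was the lowest array of its group for AOP3 in 4 of the 5 groups, for BCAT4 in 4 of the 5 and for UGT74B1 in both white light groups. In white light, replicate 1 departed from the mean of its group by −0.60 for AOP3 and −0.62 for UGT74B1 in uvr8-1, and by −0.50 and −0.51 in wildtype. Deviations of AOP3 and BCAT4 went together (Pearson r = 0.80 over 15 arrays), whereas r was 0.24 for AOP3 and AT2G04400, 0.48 for AOP3 and UGT74B1 and 0.08 for UGT74B1 and AT2G04400. These are descriptions: values of 1 array share its RNA and its normalisation. Equally numbered wildtype and uvr8-1 arrays deviated together over all probe sets.

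**Figure D4:**
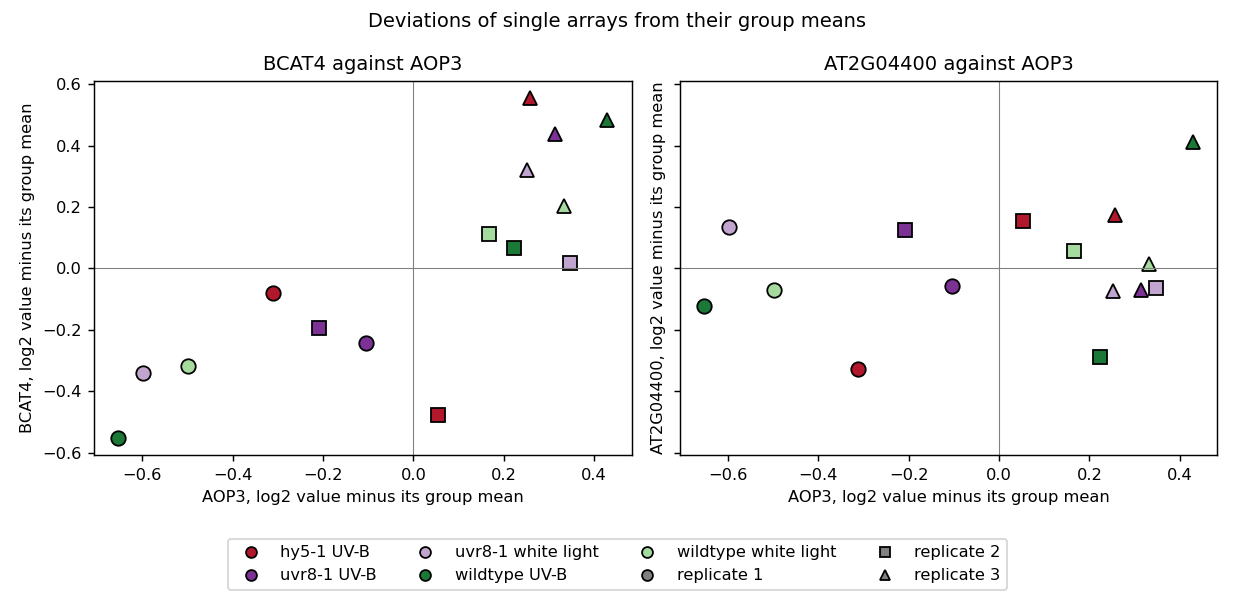
Deviations of single arrays from their group means (log2 units) for BCAT4 (left) and AT2G04400 (right) against AOP3; colours give the group and marker shapes the replicate. For BCAT4 the points lie along a rising line (r = 0.80), with replicates 1 at the lower left and replicates 3 at the upper right; for AT2G04400 the relation is weaker (r = 0.24).

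The genes whose values were most like each member were named by Pearson r over the 15 arrays among the 13356 genes. For AOP3 they were AT3G15570 (r = 0.99), AT4G23820 (0.98) and AT4G37080 (0.98). For BCAT4 they were AT2G37840 (0.98), AT1G73600 (0.98) and AOP3 itself (0.97). BCAT4 came at rank 17 among the genes most like AOP3. For UGT74B1 they were AT3G19950 (0.94), the glycosyltransferase gene UGT76E11 (0.94) and AT2G43160 (0.92). For AT2G04400 they were AT5G38900 (0.99), NDB2 (0.99), an alternative NADH dehydrogenase of mitochondria, and AT4G34180 (0.99). These correlations run over 5 groups of shared arrays and so carry the difference between the lights. UGT74B1 and AT2G04400, which both rose, had r = 0.79 with each other, and AT2G04400 was at rank 240 for UGT74B1.

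Of 124 genes in 9 lists around these pathways, 21 had a single-gene probe set, the 4 members among them. In wildtype, 3 of the other 17 rose and 4 fell under UV-B, against 12.2% higher and 18.3% lower among all probe sets. In uvr8-1, 3 rose and 6 fell, against 12.9% and 19.0%. The median log2 difference of the 17 was −0.36 in wildtype and −0.39 in uvr8-1, and that of all 13356 genes was −0.03 in both. For the difference of responses limma called 0 of the 17, against 0.857% of all probe sets, and 2 had an unadjusted p under 0.05, against 7.07%.

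AOP1, placed in the side chain list with AOP3, belongs to the same small gene cluster. In the RefSeq table of the Columbia accession, 3 genes lie between AOP1 and AOP3. AOP1 had 3.76, 3.61 and 3.27 in wildtype under UV-B, against 5.52, 6.03 and 6.51 in wildtype in white light. In uvr8-1 it had 3.88, 3.49 and 3.57 under UV-B, against 6.10, 5.28 and 6.02 in white light. It fell with AOP3, by a log2 difference of −2.48 ± 0.26 in wildtype (adjusted p = 9.57e-06) and −2.15 ± 0.26 in uvr8-1 (adjusted p = 3.16e-05). Its UV-B means, 3.65 in uvr8-1 and 3.55 in wildtype, lie under 3.74, below which the means of the dimmest 40% of all probe sets fell, and such low values set only a floor. In hy5-1 the AOP1 values were 3.21, 3.45 and 3.66, with a difference of −0.10 from wildtype that was not called (adjusted p = 0.84). The hy5-1 mean, 3.44, is under 3.74 as well, so the missing call does not show that AOP1 kept its level in hy5-1. AOP2, the third gene of the cluster, had 0 single-gene probe sets and was not analysed here.

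The third listed side chain gene, AT2G25450, moved the other way. It had 8.05, 6.83 and 7.35 in wildtype under UV-B, against 4.10, 3.85 and 3.48 in wildtype in white light, and rose by 3.60 ± 0.45 (adjusted p = 4.42e-05). In uvr8-1 it had 8.59, 7.29 and 6.87 under UV-B, against 5.25, 3.85 and 3.88 in white light, and rose by 3.26 ± 0.45 (adjusted p = 9.91e-05). Of the 3 measured genes of the side chain list, 2 thus fell and 1 rose in each genotype.

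In the core structure list, UGT74B1 was the 1 of 3 genes that rose. GSTU20, a glutathione transferase placed in aliphatic glucosinolate synthesis, fell by 1.36 in wildtype (adjusted p = 0.00401) and by 1.48 in uvr8-1 (adjusted p = 0.00213). Its values were 8.57, 8.90 and 9.23 in wildtype under UV-B, against 10.23, 10.17 and 10.38 in wildtype in white light, with no overlap. AT2G31790 fell with a log2 difference of −0.66 ± 0.23 in wildtype (adjusted p = 0.0398) and of −1.27 ± 0.23 in uvr8-1 (adjusted p = 0.000698). The wildtype call of AT2G31790 was kept only when white light replicate 1 was the array left out, and adjusted p reached 0.165 when white light replicate 3 was. It was also lost with only the groups compared (0.0554). In methionine chain elongation BCAT4 was the 1 measured gene of 10.

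**Figure D5:**
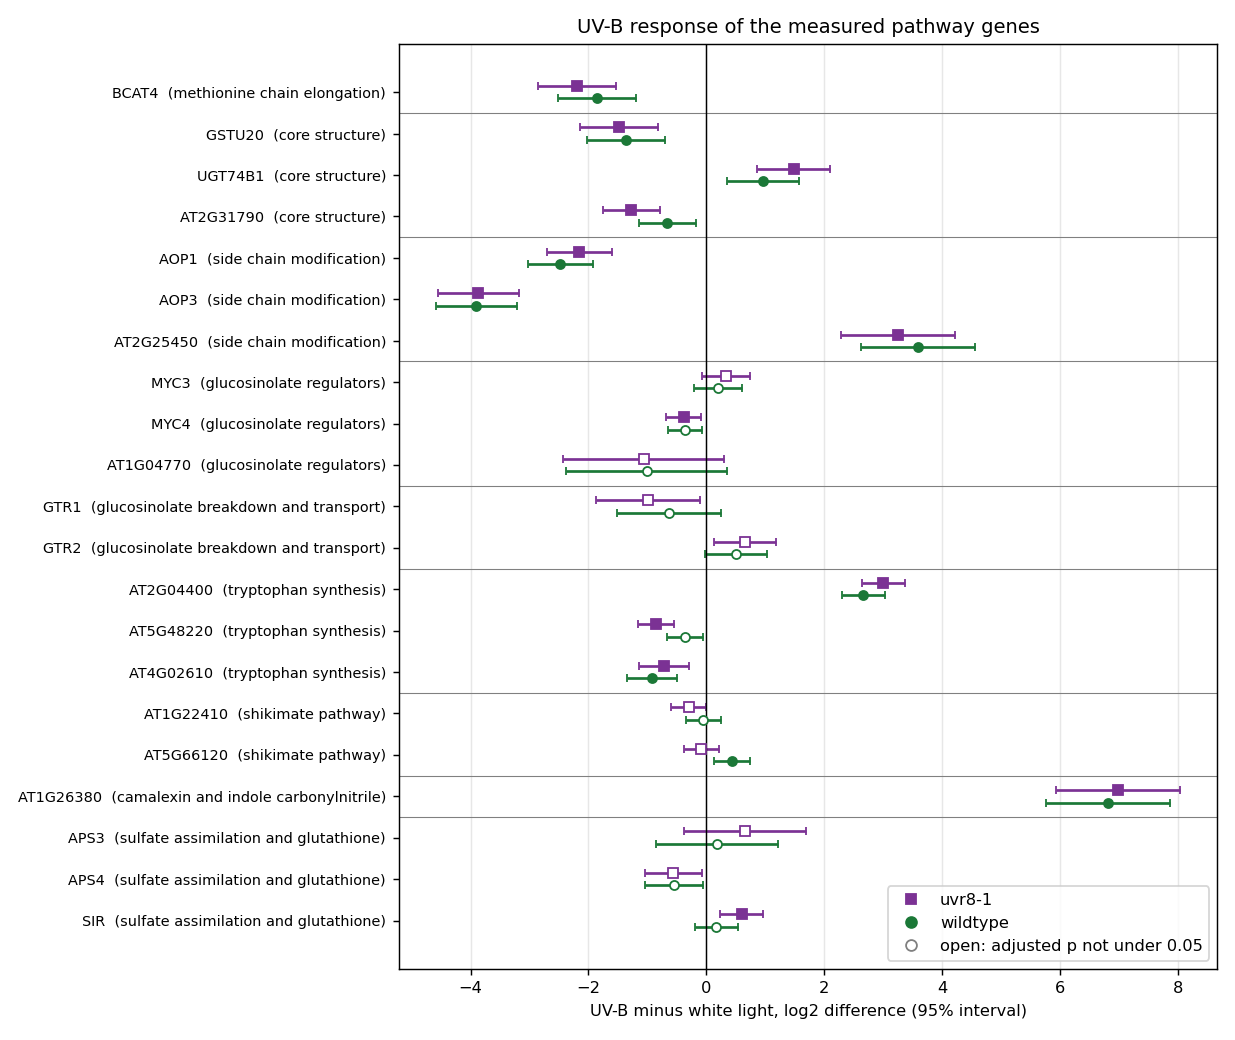
UV-B minus white light log2 differences with 95% intervals (horizontal axis) for the 21 measured genes of the 9 lists (rows, with the list in brackets), in uvr8-1 (squares) and wildtype (circles); open symbols did not pass an adjusted p of 0.05. AOP3, AOP1, BCAT4 and GSTU20 lie left of 0 and AT2G04400, UGT74B1, AT2G25450 and AT1G26380 right of it in each genotype.

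In the tryptophan list, AT2G04400 was the 1 of 3 measured genes that rose. AT4G02610 had 3.81, 4.44 and 4.41 in wildtype under UV-B, against 4.87, 5.45 and 5.10 in wildtype in white light, a fall of −0.92 ± 0.19 (adjusted p = 0.00267). In uvr8-1 it fell with a log2 difference of −0.72 ± 0.19 (adjusted p = 0.0118), and with the 3' minus 5' covariate this was −0.53 and no longer called (adjusted p = 0.0818). AT5G48220 fell in uvr8-1 (−0.86 ± 0.14, adjusted p = 0.000408) and was at −0.36 ± 0.14 in wildtype (adjusted p = 0.0758). The difference of its responses, −0.50, was not called. Upstream, in the shikimate list, AT5G66120 rose in wildtype by 0.44 ± 0.14 (adjusted p = 0.0293), a call lost on leaving out white light replicate 1 (adjusted p = 0.128) or UV-B replicate 2 (0.087) or 3 (0.139), and with only the groups compared (0.141). It was at −0.08 in uvr8-1 and AT1G22410 was at −0.05 in wildtype. Downstream, AT1G26380, the 1 measured gene of the camalexin and indole carbonylnitrile list, rose in wildtype by 6.81 ± 0.49 (adjusted p = 4.15e-07) and in uvr8-1 by 6.99 ± 0.49 (3.25e-07). Its white light means were under the dim limit of 3.74.

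Among the 8 measured regulators, transporters and sulphur genes, 0 were called in wildtype, where 30.5% of all probe sets were, and 2 in uvr8-1, where 31.9% were. MYC3 and MYC4 encode bHLH factors of jasmonate signalling that promote glucosinolate synthesis. MYC3 was at 0.19 in wildtype and 0.34 in uvr8-1 under UV-B, and neither was called. MYC4 was dim throughout, with group means of 2.94 to 3.33 that all lie under 3.74, so differences between them are uncertain. It was at −0.36 in wildtype (adjusted p = 0.0572) and −0.39 ± 0.13 in uvr8-1 (adjusted p = 0.043), a call that was lost after quantile normalisation (0.0651), with only the groups compared (0.0755) and on leaving out white light replicate 3 (0.192) or any UV-B replicate. The glucosinolate transporter genes GTR1 (−0.63 in wildtype, −0.99 in uvr8-1) and GTR2 (0.51 and 0.66) were not called. SIR, the sulfite reductase gene, rose in uvr8-1 by 0.60 ± 0.17 (adjusted p = 0.0138), a call lost on leaving out uvr8-1 white light replicate 1 (0.0566) and with the 3' minus 5' covariate (0.44, 0.0944), and it was at 0.17 in wildtype. The ATP sulfurylase genes APS3 (0.18 in wildtype, 0.66 in uvr8-1) and APS4 (−0.54 and −0.56) were not called, nor was AT1G04770 of the regulator list (−1.01 and −1.06).

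Between genotypes under UV-B, 1 of the 17 was called for uvr8-1 against wildtype, MYC3, which was higher by 1.26 ± 0.19 (adjusted p = 0.00182). MYC3 was also at 1.12 in white light, where it was not called (limma, unadjusted p = 5.17e-05, adjusted p = 0.235). The difference of its UV-B responses, 0.15, was not called either, so the higher level is not shown to be particular to UV-B. Among all probe sets 0.422% were higher in uvr8-1 under UV-B. For hy5-1 against wildtype 2 of 17 were lower, AT2G31790 (−0.86 ± 0.23, adjusted p = 0.0365) and AT5G66120 (−0.61 ± 0.14, adjusted p = 0.0201), against 4.81% lower among all probe sets. The call of AT2G31790 was kept only on leaving out hy5-1 replicate 3, and its adjusted p reached 0.147 on leaving out hy5-1 replicate 2. The call of AT5G66120 was kept on leaving out hy5-1 replicate 3 or wildtype replicate 1, and lost on leaving out any other, up to 0.0748 for wildtype replicate 2. For hy5-1 against uvr8-1, AT5G48220 was higher (0.51 ± 0.14, adjusted p = 0.0316) and MYC3 (−0.74 ± 0.19, 0.0222) and SIR (−0.58 ± 0.17, 0.0382) were lower, against 5.37% higher and 8.47% lower among all probe sets. The call of AT5G48220 was lost whichever of the 6 arrays was left out. That of MYC3 was kept on leaving out uvr8-1 replicate 1 or hy5-1 replicate 3, and that of SIR on leaving out uvr8-1 replicate 2 or hy5-1 replicate 3. The highest adjusted p came on leaving out hy5-1 replicate 2 (0.111 for AT5G48220, 0.0898 for MYC3 and 0.151 for SIR), and with the 3' minus 5' covariate none of these 5 differences of hy5-1 was called. Calls were also lost after quantile normalisation for AT2G31790 (0.051) and SIR (0.0714), after median centring for SIR (0.0504) and with only the groups compared for AT5G66120 (0.0751), MYC3 (0.0588) and SIR (0.057).

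Markers of other tissues were set beside the falls of AOP3 and BCAT4. Of 6 root markers 3 were measured. Their summed linear level was 168 to 244 in uvr8-1 under UV-B against 259 to 343 in white light. In wildtype it was 205 to 229 under UV-B against 242 to 341 in white light. PYK10, the brightest of the 3, weighs most in this sum, and the median log2 difference of the 3 was −0.07 in each genotype. PYK10, a myrosinase of roots with values from 6.58 to 8.33, fell in uvr8-1 with a log2 difference of −0.76 ± 0.23 (adjusted p = 0.0201) and was at −0.45 in wildtype (adjusted p = 0.177), while EXPA7 and EXPA18 were not called. Of 3 guard cell markers FMA alone was measured. It fell in uvr8-1 with a log2 difference of −0.43 ± 0.15 (adjusted p = 0.0457), was at −0.39 in wildtype (adjusted p = 0.0734) and was lower in hy5-1 than in wildtype, with a difference of −0.55 ± 0.15 (adjusted p = 0.0475). The alternative settings were not read for the markers. With the 3' minus 5' covariate, only 2 probe sets of the whole array were called for hy5-1 against wildtype. The flower, seed and vascular lists had 0 measured genes. Of 10 leaf markers 2 were measured: LHCB4.2, an antenna protein gene, fell in wildtype with a log2 difference of −2.34 ± 0.29 and in uvr8-1 with one of −1.48 ± 0.29, and RCA was not called. The summed linear level of these 2 was 5492 to 5624 in uvr8-1 under UV-B against 7416 to 7832 in white light. In wildtype it was 5609 to 5953 under UV-B against 7259 to 8311 in white light. The part of these markers in the results was not tested.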

How the data were processed

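The deposited values are log2 expression values that the authors made with RMA, per the submitters' processing notes. RMA equalises the distributions of arrays and condenses each probe set into a value, which can shrink differences between groups. Whether the arrays were processed in 1 run or several, by which version and with which background step was not given in the sources used here. Separate runs could shift differences between groups, which was not tested. Of 22810 probe sets, 64 controls were set aside and 22746 were tested with no filter. The annotation paired 13513 with 1 gene, 503 with several and 8730 with none, and 13436 of the 13513 matched a RefSeq table (assembly TAIR10.1), used for symbols and gene order only. Where a gene had several single-gene probe sets, the one of highest mean stood for it.

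Groups were compared with limma 3.58.1 in R 4.3.3, with a mean per group over all 15 arrays (10 residual and 3.09 prior degrees of freedom). Tests were 2-sided, adjusted by Benjamini-Hochberg over all 22746 probe sets and called under 0.05. A ± gives the standard error of a difference, or the SD where SD is written. The procedure was tested on simulated data whose arrays varied independently. Such data do not carry the joint deviations of same-numbered arrays or the 3' minus 5' differences seen here. Python 3.11.15, pandas 2.3.3, numpy 2.4.6 and matplotlib 3.10.9 made tables and plots.

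The members and lists were chosen with earlier results of these data known. All measured genes of the lists could be named, and genes alike were the 3 of highest r. Same-numbered wildtype and uvr8-1 arrays deviated together in every pair (r from 0.10 to 0.68), so their numbers were taken to pair them. Those of hy5-1 did not (down to −0.15). The main fit did not use the pairing, so its standard errors, intervals and p-values ignore it. A fit of the wildtype and uvr8-1 arrays with the number as a block called 8054 probe sets for UV-B in wildtype, in place of 6941. For the difference of responses it called 201, in place of 195. Precision is limited by the 3 arrays in each group.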

Additional observations from a re-analysis of the deposited data

How the results depend on the processing

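The UV-B responses of AOP3, BCAT4 and AT2G04400 in both genotypes, and of UGT74B1 in uvr8-1, kept direction and call under all alternatives run. Over all settings, 419 values of the 4 genes kept direction and side of the threshold, 13 lost a call, 16 gained one and 24 changed sign. Most of these values belong to differences that were not called in the main fit and so had no call to lose. Of the other genes, entered only where called, 293 values kept their call, 55 lost it and 3 changed sign. With the replicate number as a block, no call of the 4 genes changed in the wildtype and uvr8-1 comparisons. The hy5-1 numbers do not pair, and there the block gave adjusted p = 0.0035 for AOP3 (−1.07) and 0.00474 for BCAT4 (−1.03) against wildtype, 0.00837 (−0.80) and 0.00804 (−0.83) against uvr8-1, and 2857 calls against wildtype in place of 1726.

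Against wildtype, AOP3 in hy5-1 was also called with an intensity trend (−1.07, adjusted p = 0.0478), array weights (−1.12, 0.0374) and the dim filter (−1.07, 0.0435), and BCAT4 with the trend (−1.03, 0.0461) and the dim filter (−1.03, 0.0433). Against uvr8-1, AOP3 was called with array weights (−0.96, 0.0256) and with only the groups compared (−0.80, 0.0487), and BCAT4 with array weights (−0.999, 0.0216). With the 3' minus 5' covariate, hy5-1 minus wildtype was 0.10 for BCAT4, 0.73 for UGT74B1 and 0.038 for AT2G31790, and hy5-1 minus uvr8-1 was 0.24 for BCAT4, 0.23 for UGT74B1, −0.66 for AT2G04400 and 0.023 for MYC3. With that covariate and only the groups compared, an alternative chosen after seeing the data, the values were 0.35 for UGT74B1 against wildtype and 0.57 for BCAT4, −0.31 for UGT74B1, −0.49 for AT2G04400 and 0.11 for MYC3 against uvr8-1. The difference of responses was −0.018 for AOP3 after quantile normalisation, 0.14 for AOP3 and −0.19 for BCAT4 with array weights, and −0.17 for AOP3, −0.72 for BCAT4 and 0.077 for UGT74B1 with the covariate, which also gave 0.43 for UGT74B1 and 0.0098 for AT2G04400 in white light (uvr8-1 minus wildtype).

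Counts of called probe sets moved too. The difference of responses gave 334 with array weights and 129 with the covariate in place of 195. The comparison of uvr8-1 with wildtype under UV-B gave 213 with only the groups compared in place of 549. In white light there were 2 with the covariate and 0 with only the groups compared in place of 4 (limma, 410 at an unadjusted p under 0.05). For hy5-1 against wildtype there were 2 with the covariate, 787 with only the groups compared and 0 with both (802 unadjusted). For hy5-1 against uvr8-1 there were 4928 with array weights, 8 with the covariate, 2093 with only the groups compared and 0 with both (996 unadjusted), in place of 3148. The cause was not tested.

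Leaving out 1 array at a time, the UGT74B1 response in wildtype ran from 0.71 to 1.20 and the difference of responses from −0.30 to 0.28 for AOP3, −0.62 to −0.097 for BCAT4, 0.20 to 0.77 for UGT74B1 and 0.19 to 0.54 for AT2G04400, none called. For uvr8-1 minus wildtype, BCAT4 ran from −0.48 to 0.042 under UV-B and from −0.020 to 0.31 in white light, where UGT74B1 ran from −0.34 to 0.23 and AT2G04400 from −0.078 to 0.027. For hy5-1 minus wildtype, AOP3 ran from −1.40 to −0.85 and BCAT4 from −1.31 to −0.79. AOP3 was called without wildtype UV-B replicate 1 (0.0236), and BCAT4 without that array (0.0316) or hy5-1 replicate 3 (0.0241). For hy5-1 minus uvr8-1, BCAT4 ran from −1.11 to −0.59, UGT74B1 from −1.14 to −0.87 and AT2G04400 from −0.79 to −0.54. BCAT4 gained a call there in 1 of 6 fits (adjusted p = 0.0341). Counts ran from 132 to 334 for the difference of responses and from 350 to 884 for uvr8-1 against wildtype under UV-B. They ran from 550 to 2013 for hy5-1 against wildtype and from 1493 to 3175 for hy5-1 against uvr8-1. Another probe set could not be tried, since each gene has 1.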
